A study of Mus musculus with 11 samples.

Results

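Cholesterol synthesis and sterol handling were followed in 31 named genes, found by symbol among the 77179 Ensembl gene IDs of the expression table: 20 enzymes of the synthesis pathway, 5 genes of its SREBP control and 6 genes of sterol transport, storage and turnover. All 31 had a row and reached at least 1 TPM (a unit that gives a gene's share of a library's transcripts, corrected for transcript length) in at least 2 of the 11 libraries, the limit for testing. In the 9 pull-down libraries, 29 of them reached 1 TPM throughout. The exceptions were Soat1 and Abca1, and Abca1 passed the limit through the whole-tissue libraries alone.

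RNA came from mouse cortex and hippocampus, processed together. NEX-RiboTag mice carry NEX-Cre, which acts in excitatory neurons of the forebrain, on a C57BL/6J background, together with a reporter that makes the ribosomal protein Rpl10a fused to eGFP in cells with Cre. Ribosomes and their RNA were pulled down with anti-GFP beads (IP) from animals of genotype NEX-Cre;Rpl10aeGFP/eGFP at 3 ages, postnatal days 7 (P7), 14 (P14) and 21 (P21). Each age had 3 libraries, which the labels call biological replicates. Whole-tissue RNA (input) was sequenced at P7 only, with 2 libraries of different genotype: replicate 1 was NEX-Cre;Rpl10aeGFP/eGFP and replicate 2 was Rpl10aeGFP/eGFP without Cre. All 11 libraries thus share the eGFP reporter allele. The labels do not say how many animals went into a library. P14 and P21 had no input, so a change with age in the pull-down could not be set against the tissue at that age.

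Cholesterol is built from acetyl-CoA: the mevalonate steps make a precursor that is joined into isoprenoid chains, a pair of chains is condensed to squalene, squalene is closed into the ring of lanosterol, and lanosterol is trimmed to cholesterol. When sterol in the endoplasmic reticulum is low, SCAP carries the SREBP transcription factors to the Golgi for cleavage, and the released fragments switch on the synthesis genes, whereas INSIG proteins hold SCAP back when sterol is plentiful. The blood-brain barrier keeps plasma lipoproteins out, so brain cholesterol is made locally, and neurons dispose of the excess by turning it into 24S-hydroxycholesterol, which can leave the brain.

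The labelled cell type, excitatory neurons, was checked on marker genes. The 7 excitatory markers summed to 1089 and 1208 TPM in the P7 input and to 1103 to 1335 TPM in the P7 pull-downs, which overlapped. Of these markers, 3 were called higher in the pull-down and 1 lower, beside 18.6% and 51.1% of all genes. The markers of other cell types were lower in the pull-down: the 6 inhibitory-neuron markers summed to 594 and 719 TPM in the input and 43.5 to 48.1 TPM in the P7 pull-downs. Marker sums in the pull-down also changed with age. At P21 the excitatory markers summed to 3079 to 3275 TPM, with 3 of 7 called higher than at P7 and 3 lower. The inhibitory markers summed to 67.6 to 82.3 TPM at that age, with 5 of 6 called higher. Of all genes, 27.3% were called higher at P21 than at P7 and 32.6% lower. The 7 astrocyte markers summed to 634 and 694 TPM in the input, 38.6 to 58.9 TPM in the P7 pull-downs, 104 to 124 TPM at P14 and 139 to 172 TPM at P21. The 7 oligodendrocyte markers summed to 31.03 to 34.8 TPM in the P7 pull-downs and 503 to 726 TPM at P21. The part of RNA from these cells in the values below was not tested. The table gives no read counts, so sequencing depth is not known and only the spread between libraries shows how precise a value is.

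The summed level of the 20 synthesis enzymes was lower at each later age in the pull-down. It was 1741, 1686 and 1660.0 TPM in the P7 pull-downs, 835, 877 and 891 TPM at P14, and 629, 648 and 658 TPM at P21. No library of one age reached the range of another, and the mean went from 1696 ± 41.4 (SD, n = 3) to 645 ± 14.6 TPM (SD, n = 3). As a share of all transcripts this was a move from 0.17% to 0.0645%. In bulk RNA, fewer cells of a type and less RNA per cell cannot be told apart, and a share of transcripts also moves when other genes do.

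Between P7 and P21, 19 of the 20 enzymes were called lower and 1 higher (limma on log2(TPM + 1), adjusted p below 0.05 after Benjamini-Hochberg adjustment over 19008 genes). Over all genes tested, 32.6% were called lower and 27.3% higher in this comparison. The members were chosen with earlier results of these data known. Shares of all genes, here and below, are therefore a description and no test of the set. The median log2 change of the enzymes was -1.23, beside -0.04 for all genes tested. All 20 enzymes had P7 and P21 libraries that did not overlap. The share of all genes without overlap was not taken, so this count describes the enzymes only. At P21, 14 enzymes were below 50% of their mean TPM at P7 and 5 of them below 30%: Fdps, Acat2, Mvd, Sqle and Hmgcs1. Taking all 31 genes, 24 were called lower and 5 higher, with a median of -1.02. Both counts were identical under each of 3 scalings of the libraries, and leaving out any library gave 24 lower and 4 or 5 higher.

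**Figure D1:**
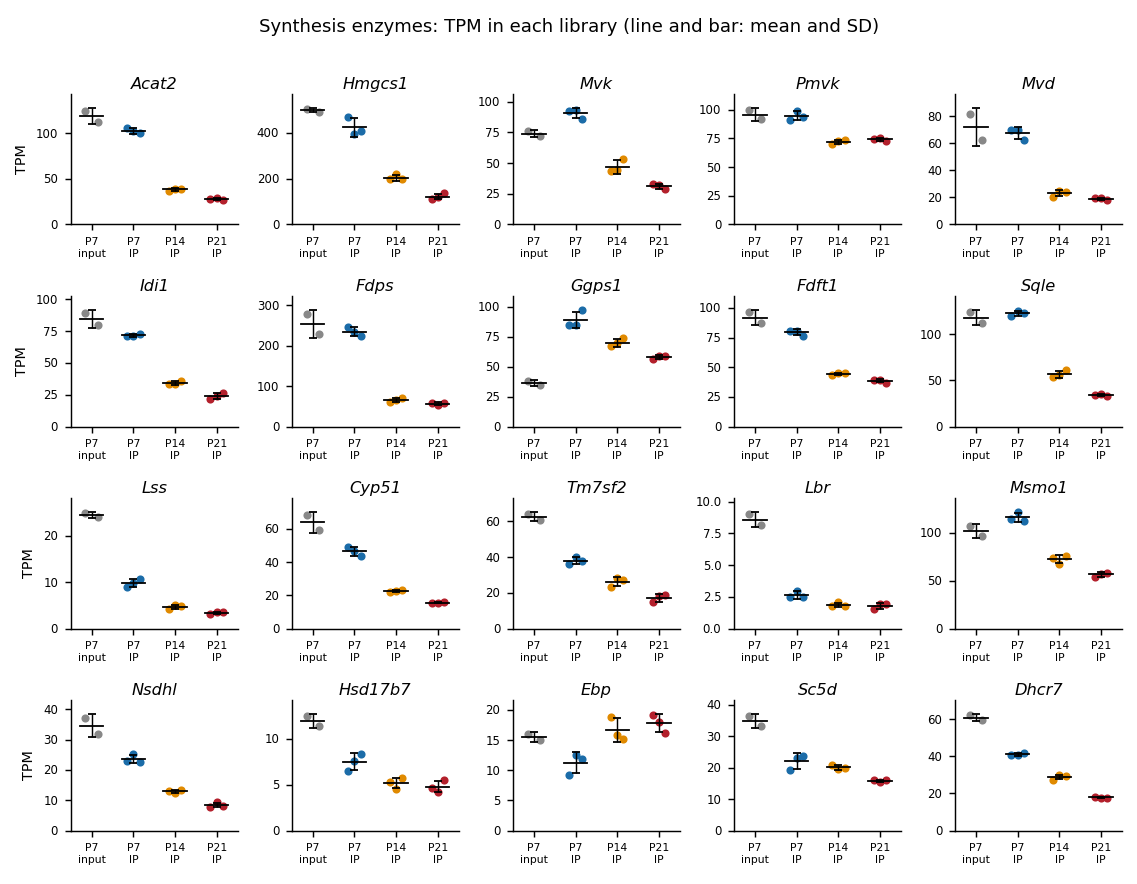
TPM (vertical axis, from 0) of the 20 synthesis enzymes in each library of P7 input (grey, n = 2), P7 IP (blue), P14 IP (orange) and P21 IP (red, n = 3 each); points are libraries, the line is the group mean and the bar the SD. The pull-down points step down with age for most enzymes, for instance Acat2 from 100 to 106 TPM at P7 to 27.2 to 28.9 TPM at P21, whereas those of Ebp step up.

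Of the mevalonate steps, all 5 fell from P7 to P21 (median log2 change -1.78). Hmgcs1 (ENSMUSG00000093930), the synthase that makes HMG-CoA, was the most abundant member at P7: it read 469, 394 and 409 TPM in the P7 pull-downs, 197, 219 and 198 TPM at P14, and 111, 119.9 and 136 TPM at P21. The 3 ages did not overlap, and P21 stood at 28.8% of P7 (log2 change -1.79 ± 0.08 SE, adjusted p = 4.29e-08 by limma). Acat2 (ENSMUSG00000023832), which joins acetyl-CoA units in the cytosol, read 106, 102 and 100 TPM at P7, 36.7, 39.4 and 39.2 TPM at P14, and 27.6, 28.9 and 27.2 TPM at P21. Here most of the drop lay in the first interval, with changes of -1.40 ± 0.05 by P14 and -0.45 ± 0.05 after it (adjusted p = 1.47e-07 and 0.000276 by limma).

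Mvd (ENSMUSG00000006517), the decarboxylase that ends the mevalonate steps, read 69.8, 70.1 and 62.4 TPM at P7, 20.5, 24.8 and 23.9 TPM at P14, and 19.4, 19.2 and 17.9 TPM at P21. Its level at P14 was already near that at P21: the second interval gave -0.27 ± 0.10, which missed the threshold (adjusted p = 0.0704 by limma), but passed it without either input library, without P14 IP replicate 1 and in 2 other fits. Mvk, mevalonate kinase, fell in both intervals, from 85.8 to 93.3 TPM at P7 through 43.3 to 53.1 TPM at P14 to 28.9 to 32.8 TPM at P21. Pmvk, the next kinase, had the smallest change of the 5: its 91.2 to 98.9 TPM at P7 became 70.0 to 73.6 TPM at P14 and 72.9 to 75.4 TPM at P21, so that P14 and P21 overlapped.

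The isoprenoid steps gave the member with the largest drop. Fdps (ENSMUSG00000059743), which builds farnesyl diphosphate, read 245, 235 and 223 TPM at P7, 59.7, 66.2 and 71.3 TPM at P14, and 58.5, 53.7 and 58.3 TPM at P21. P7 lay far above both later ages, and P21 stood at 24.2% of P7 (log2 change -2.03 ± 0.08, adjusted p = 2.09e-08 by limma). Its second interval gave -0.20 ± 0.08, which passed only without P14 IP replicate 1 (adjusted p = 0.0954 with all libraries and 0.0460 without it, by limma). Idi1, the isomerase that readies the isoprenoid unit for joining, fell in both intervals, from 70.9 to 73.0 TPM at P7 to 21.8 to 26.4 TPM at P21. Ggps1 makes geranylgeranyl diphosphate, which leaves the sterol branch for the prenylation of proteins. It read 85.1, 84.6 and 97.04 TPM at P7 and 56.3, 59.0 and 58.5 TPM at P21, and its change of -0.61 ± 0.07 was the smallest of the 3 isoprenoid enzymes.

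From squalene to lanosterol all 3 enzymes were called lower in both intervals with the deposited scaling. Sqle (ENSMUSG00000022351), squalene epoxidase, a rate-limiting step of the pathway, read 119.9, 125 and 123 TPM at P7, 53.6, 55.7 and 61.1 TPM at P14, and 33.8, 35.7 and 33.4 TPM at P21. The ages were well apart, and the change from P7 to P21 was -1.81 ± 0.06 (adjusted p = 6.72e-09 by limma). Fdft1, squalene synthase, which commits the chains to sterols, went from 76.3 to 80.8 TPM at P7 to 37.0 to 39.4 TPM at P21. Its call after P14 was lost with median-of-ratios scaling (-0.08, adjusted p = 0.329 by limma) and with quantile normalisation (-0.11, adjusted p = 0.152 by limma). Lss, the cyclase that makes lanosterol, was lower throughout, at 8.95 to 10.8 TPM at P7 and 3.14 to 3.51 TPM at P21.

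Of the 9 enzymes after lanosterol, 8 fell and Ebp rose. Dhcr7 (ENSMUSG00000058454), the reductase of the last step of one branch, read 40.5, 40.9 and 41.9 TPM at P7, 27.4, 29.7 and 29.4 TPM at P14, and 18.2, 17.4 and 17.8 TPM at P21. It fell in both intervals, with changes of -0.50 ± 0.05 and then -0.66 ± 0.05. Cyp51, which removes the first methyl group of lanosterol, fell by 1.51 on the log2 scale over both intervals, and Nsdhl, of the demethylation complex, by 1.39. Tm7sf2 and Lbr both encode a sterol C14 reductase: Tm7sf2 went from 36.3 to 40.0 TPM at P7 to 14.8 to 18.5 TPM at P21, whereas Lbr, also a receptor for lamin B in the nuclear envelope, was at 2.45 to 2.96 TPM at P7 and 1.52 to 1.94 TPM at P21. The fall of Lbr by P14 was lost without P7 IP replicate 2 (adjusted p = 0.0628 by limma) or P14 IP replicate 1 (adjusted p = 0.0524 by limma). Msmo1, the first C4 demethylation enzyme, stayed among the most abundant, at 54.0 to 58.5 TPM at P21, and Hsd17b7, of the same complex, was at 4.23 to 5.45 TPM. Sc5d, a desaturase, read 19.1, 23.1 and 23.8 TPM at P7, 20.9, 19.5 and 19.9 TPM at P14, and 16.1, 15.3 and 16.0 TPM at P21. It was called lower after P14 but not by P14 (adjusted p = 0.0120 and 0.241 by limma). Without P7 IP replicate 1 its fall by P14 also passed (adjusted p = 0.0179 by limma). With median-of-ratios scaling its call after P14 was lost (-0.22, adjusted p = 0.0575 by limma).

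Ebp (ENSMUSG00000031168), the isomerase that shifts the ring's double bond, read 9.28, 12.6 and 11.9 TPM at P7, 18.9, 15.8 and 15.3 TPM at P14, and 19.2, 18.0 and 16.2 TPM at P21. Each later library was above each P7 library, and the later ages overlapped. The rise by P21 was 0.62 ± 0.11 (adjusted p = 0.000765 by limma). The ratio of Ebp to Dhcr7 within a library went from 0.229 to 0.307 at P7 to 0.911 to 1.05 at P21.

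Since 19 of the 20 enzymes were lower at P21 than at P7, the DNA just before the start sites of the 31 genes was examined for the known SREBP element and for the NF-Y and GC boxes with which SREBP is known to act. Promoters came from RefSeq on GRCm38.p6, an older build than the mm39 of the expression values. They matched 26 of the 31 genes and 17 of the 20 enzymes, and 5 members had more than 1 start. Fdps, Fdft1, Sqle, Stard4 and Npc1 had no entry. The 250 bases before the start were searched on both strands for CCAAT (NF-Y box), GGGCGG (GC box), CACNCCAC (the core of the SREBP element) and TCACNCCAC (the core with 1 more base, so that each such match is also a core match).

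The NF-Y box was in 16 of the 17 enzymes (94.1%) and in 23 of the 26 genes (88.5%), beside 40.1% of the 11773 tested genes with a promoter. The GC box was in 23 of 26 (88.5%), beside 61.8%. The core was in 3 of 26 (11.5%; Hmgcs1, Acat2 and Insig1), beside 6.83%, and the longer form in Hmgcs1 alone, beside 1.29%. The 5 genes called higher at P21 than at P7 (Ebp, Srebf2, Insig2, Cyp46a1 and Soat1) also held the NF-Y box. With the box in 23 of 26 genes, few lack it, and its relation to the direction of change was not tested. The 200 bases before the start are given for 4 genes that fell and for 2 that rose, Ebp and Cyp46a1. Core and NF-Y matches are in capitals (ATTGG is CCAAT on the other strand, and GTGGCGTG the core).
Hmgcs1, chr13:119690151-119690350 (+ strand): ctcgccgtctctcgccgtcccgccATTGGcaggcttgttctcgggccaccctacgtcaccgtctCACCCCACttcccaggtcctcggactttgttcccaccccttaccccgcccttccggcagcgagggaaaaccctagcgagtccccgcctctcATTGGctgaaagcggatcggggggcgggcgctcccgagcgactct
Acat2, chr17:12960726-12960925 (- strand): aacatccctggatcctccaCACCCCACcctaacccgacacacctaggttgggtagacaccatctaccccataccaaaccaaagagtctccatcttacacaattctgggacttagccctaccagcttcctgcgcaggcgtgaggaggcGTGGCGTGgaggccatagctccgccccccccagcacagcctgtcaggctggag
Mvd, chr8:122443423-122443622 (- strand): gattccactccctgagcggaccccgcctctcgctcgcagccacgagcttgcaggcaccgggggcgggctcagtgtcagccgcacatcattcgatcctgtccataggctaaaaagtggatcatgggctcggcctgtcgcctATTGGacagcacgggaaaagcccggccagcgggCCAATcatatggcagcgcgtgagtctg
Insig1, chr5:28071212-28071411 (+ strand): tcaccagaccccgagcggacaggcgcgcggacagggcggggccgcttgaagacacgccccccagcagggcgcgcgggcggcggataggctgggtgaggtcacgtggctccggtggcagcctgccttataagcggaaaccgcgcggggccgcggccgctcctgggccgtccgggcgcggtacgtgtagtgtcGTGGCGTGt
Ebp, chrX:8193513-8193712 (- strand): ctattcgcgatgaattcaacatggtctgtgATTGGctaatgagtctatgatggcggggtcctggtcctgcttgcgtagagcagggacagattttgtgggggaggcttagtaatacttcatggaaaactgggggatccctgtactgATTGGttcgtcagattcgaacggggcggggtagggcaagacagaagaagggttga
Cyp46a1, chr12:108334116-108334315 (+ strand): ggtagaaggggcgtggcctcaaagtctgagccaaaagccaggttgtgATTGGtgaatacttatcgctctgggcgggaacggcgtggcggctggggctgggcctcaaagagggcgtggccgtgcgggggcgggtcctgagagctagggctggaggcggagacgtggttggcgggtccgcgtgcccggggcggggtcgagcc
In Hmgcs1 the core match lies 136 to 129 bases before the start, between NF-Y boxes. Insig1 has its NF-Y box farther from the start than the bases shown, whereas Acat2 holds 2 core matches and no NF-Y box in its 250 bases. A match is a string of letters, not evidence of binding. Only these exact strings were searched, so a gene without a match may still hold a site of another sequence.

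The 2 weekly intervals were then compared. From P7 to P14, 22 of the 31 genes were called lower and 3 higher, beside 22.8% and 26.7% of all genes. From P14 to P21, 18 were called lower and 1 higher, beside 19.7% and 8.53%. The enzymes' median changes were -0.82 and -0.36, beside 0.03 and -0.08 for all genes. Of the 20 enzymes, 13 were called lower in both intervals, 5 in the first alone and 1, Sc5d, in the second alone. The share of all genes called lower in both intervals was not taken, and both intervals use the same P14 libraries. The second-interval count rests on the scaling: with median-of-ratios scaling 11 genes were called lower and 3 higher. Without P14 IP replicate 3 it was 12 lower. The calls of Ggps1, Fdft1, Scap, Insig1, Stard4 and Npc2 in that interval were each lost when some single library was left out. These calls and that of Sc5d were also lost with median-of-ratios scaling.

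Whether the intervals differed was tested directly, as the second change minus the first, where a positive value means a weaker fall or a stronger rise after P14. The test called 11 genes positive and 1 negative, beside 7.46% and 16.8% of all genes, and the median over the 31 was 0.32, beside -0.10. The largest values were those of Fdps (1.62 ± 0.14, adjusted p = 0.000228 by limma), Mvd (1.24 ± 0.18, adjusted p = 0.00112 by limma) and Acat2 (0.95 ± 0.09, adjusted p = 0.000259 by limma). For Fdps, 89.9% of the log2 change to P21 was present at P14, for Mvd 84.7% and for Acat2 75.7%. Hmgcs1 had 58.4% and Dhcr7 42.8% at that age, and neither passed the test (0.30 ± 0.15, adjusted p = 0.168, and -0.17 ± 0.08, adjusted p = 0.184, by limma). By role, 8 of the 11 enzymes up to lanosterol passed, and 1 of the 9 after it, Cyp51. Msmo1 (0.32 ± 0.10, adjusted p = 0.0512 by limma) passed in 8 alternatives and Mvk (0.38 ± 0.14, adjusted p = 0.0768 by limma) in 4, among them both other scalings, and Hmgcs1 passed with median-of-ratios scaling. The difference between these groups of enzymes was not tested. Sqle, Lss and Insig1 no longer passed without P14 IP replicate 1 (adjusted p = 0.0916, 0.0933 and 0.0874 by limma). Sqle and Insig1 were also lost without P14 IP replicate 2 (adjusted p = 0.0775 and 0.0893 by limma).

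**Figure D2:**
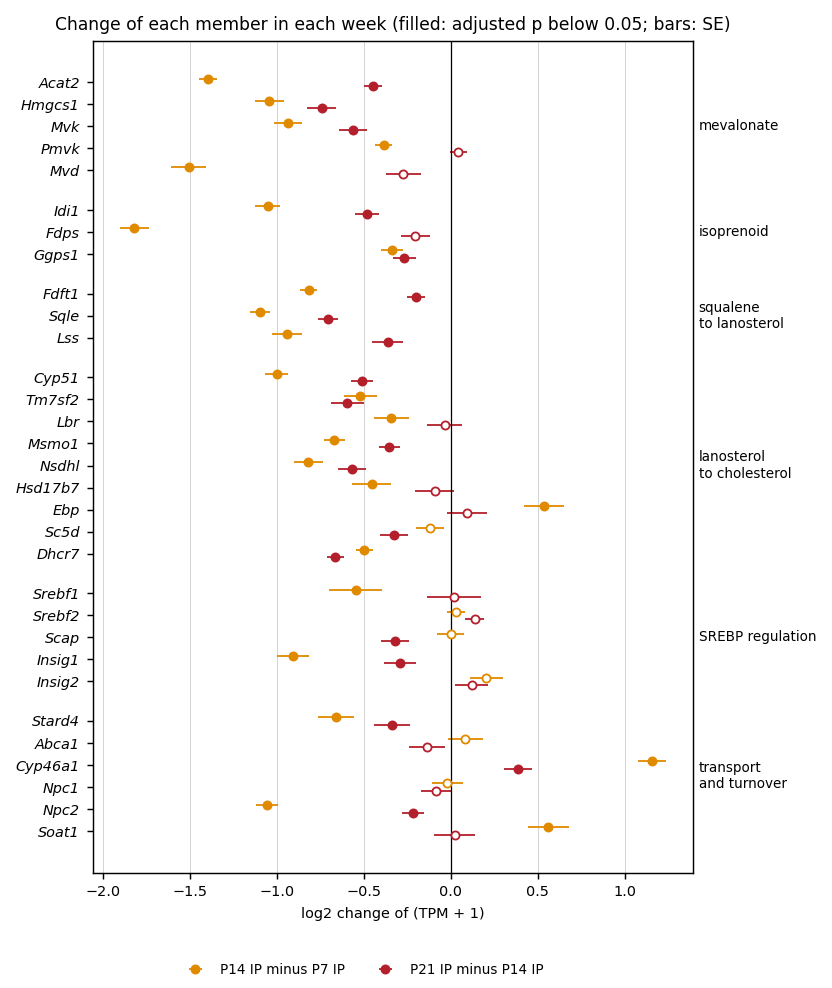
Log2 change of TPM + 1 (horizontal axis) of each of the 31 genes from P7 to P14 (orange) and from P14 to P21 (red) in the pull-down, ordered by role; bars are SE and filled points passed adjusted p below 0.05. The orange points of Fdps, Mvd and Acat2 lie farthest to the left, at -1.82, -1.51 and -1.40, and the orange point of Cyp46a1 farthest to the right, at 1.15.

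Of the 5 genes of SREBP control, 3 were called lower and 2 higher from P7 to P21, beside 32.6% and 27.3% of all genes. Insig1 (ENSMUSG00000045294), a brake on SREBP release that is itself an SREBP target, read 67.8, 77.7 and 76.3 TPM at P7, 36.4, 36.4 and 44.4 TPM at P14, and 28.6, 31.7 and 34.5 TPM at P21. The ages did not overlap, and the change was -1.20 ± 0.09 (adjusted p = 1.2e-06 by limma). Insig2 (ENSMUSG00000003721), its relative, read 32.5, 32.5 and 34.8 TPM at P7, 34.1, 38.4 and 43.3 TPM at P14, and 42.4, 37.1 and 46.4 TPM at P21. P7 and P14 overlapped, with a change that passed only without P14 IP replicate 1 or with a replicate block (adjusted p = 0.105 with all libraries and 0.0336 without that one, by limma). The rise by P21 (0.32 ± 0.10, adjusted p = 0.0138 by limma) was lost without P21 IP replicate 3 (adjusted p = 0.0558 by limma). The ratio of Insig2 to Insig1 went from 0.419 to 0.480 at P7 through 0.938 to 1.06 at P14 to 1.17 to 1.48 at P21.

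Srebf2 (ENSMUSG00000022463), which encodes the SREBP of cholesterol synthesis, changed little while the enzymes fell. It read 104, 110.4 and 106 TPM at P7, 113, 104 and 109.9 TPM at P14, and 124, 117 and 119 TPM at P21. The rise of 0.17 ± 0.05 from P7 to P21 (adjusted p = 0.0218 by limma) held under all 3 scalings. It was lost without P7 IP replicate 1, P7 IP replicate 3 or P21 IP replicate 1 (adjusted p = 0.0692, 0.0501 and 0.0755 by limma). The change after P14 was not called (0.14, adjusted p = 0.0860 by limma), but passed with median-of-ratios scaling (0.25, adjusted p = 0.0089 by limma) and quantile normalisation (0.15, adjusted p = 0.0481 by limma). Srebf1, the relative tied mainly to fatty acid synthesis, was low, at 2.71 to 3.81 TPM at P7 and 1.56 to 2.52 TPM at P21, and fell by P14 (-0.55 ± 0.15, adjusted p = 0.0126 by limma). Scap, the escort of both, read 45.8 to 55.3 TPM at P7 and 45.2 to 53.5 TPM at P14, which overlapped, and 39.4 to 40.6 TPM at P21, below both. RNA levels carry no information on cleavage of the SREBP proteins.

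Among the genes of transport and turnover, Cyp46a1 (ENSMUSG00000021259), the hydroxylase that makes 24S-hydroxycholesterol in neurons, had the largest rise of the 31. It read 40.6, 50.4 and 46.8 TPM at P7, 109.5, 103 and 97.02 TPM at P14, and 144, 134 and 127 TPM at P21. The ages did not overlap, P21 was 295% of P7, and the changes were 1.15 ± 0.08 and then 0.39 ± 0.08 (adjusted p = 1.41e-06 and 0.00521 by limma), a smaller second step by the direct test (-0.77 ± 0.14, adjusted p = 0.00326 by limma). Against Sqle in the same library, Cyp46a1 went from 0.339 to 0.403 at P7 to 3.76 to 4.26 at P21. At P7 Hmgcs1, Fdps and Sqle had the highest mean TPM of the 31, and at P21 Cyp46a1 did, at 135 TPM beside 122 TPM for Hmgcs1, with ranges that overlapped.

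Soat1, which esterifies cholesterol for storage, also rose, from 0.863, 0.881 and 1.15 TPM at P7 to 2.00, 1.96 and 1.85 TPM at P21 (0.58 ± 0.12, adjusted p = 0.00126 by limma), at a level low enough for the pseudocount of 1 TPM to shrink its change. Npc2 (ENSMUSG00000021242), which hands cholesterol to NPC1 inside lysosomes, fell from 52.1, 47.1 and 45.9 TPM at P7 to 22.6, 23.0 and 22.5 TPM at P14 and 18.3, 20.5 and 19.4 TPM at P21. Its partner Npc1, the lysosomal membrane exporter, was at 5.77 to 6.89 TPM at P7 and 5.28 to 6.22 TPM at P21, and no age comparison passed the test. Stard4, a carrier of sterol between membranes, fell from 10.54 to 14.6 TPM to 5.76 to 5.94 TPM (adjusted p = 1.2e-05 by limma). Abca1, the efflux pump, stayed between 0.404 and 0.743 TPM in the pull-downs and passed no age test.

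**Figure D3:**
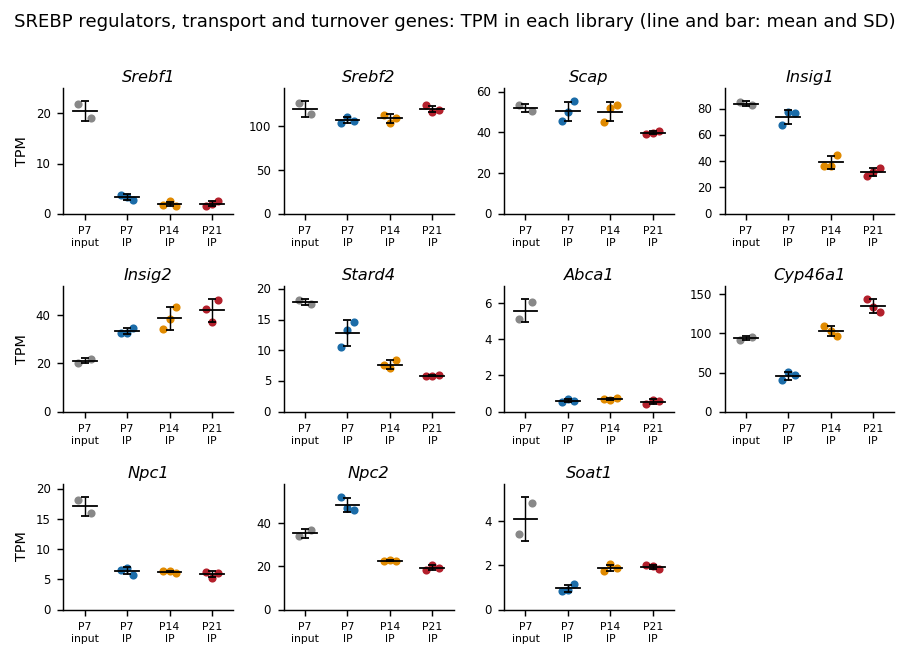
TPM (vertical axis, from 0) of the 5 SREBP control genes and the 6 genes of transport and turnover in each library, with the groups, colours, mean lines and SD bars of the plot of the synthesis enzymes. Cyp46a1 steps up with age in the pull-down and Insig1, Stard4 and Npc2 step down, whereas Srebf2 stays between 104 and 124 TPM. Insig2 is higher at P21 than at P7, and its P14 points overlap both.

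**Figure D4:**
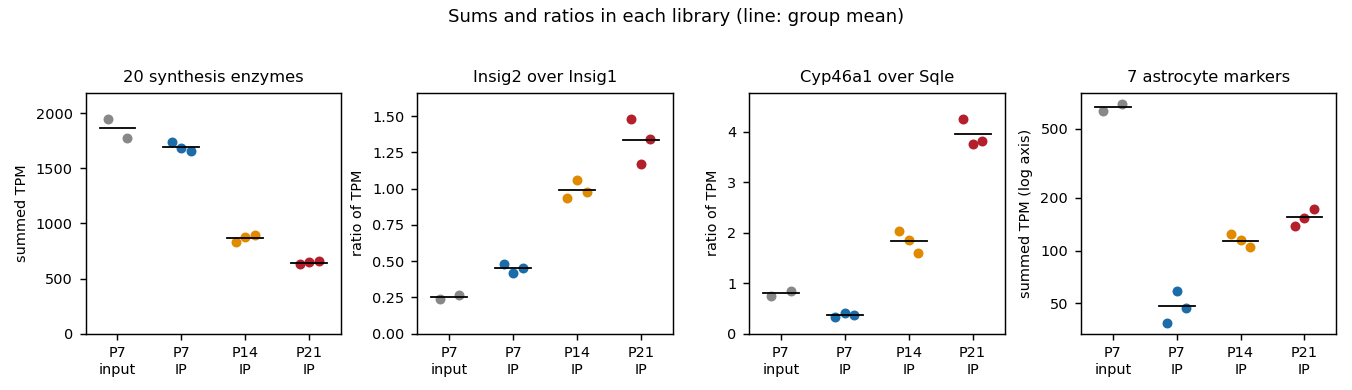
Summed TPM of the 20 synthesis enzymes, the ratios of Insig2 to Insig1 and of Cyp46a1 to Sqle, and the summed TPM of 7 astrocyte markers (log axis) in each library; points are libraries and lines group means. The enzyme sum falls with age in the pull-down while both ratios and the astrocyte sum rise.

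Other genes of the pathway were taken from lists written from general knowledge, and their counts from P7 to P21 stand beside 27.3% higher and 32.6% lower over all genes. Por, the electron donor of Cyp51 and Sqle, rose by 0.28 ± 0.05 from P7 to P21 (adjusted p = 0.00104 by limma). The rest of its list is not reported here, and Por does not stand for the direction of that list. Of 11 fatty acid synthesis genes, 9 fell and 1 rose (median -0.80): Fasn, fatty acid synthase, fell by 1.65 on the log2 scale, and Acss2, which makes acetyl-CoA from acetate, rose by 0.50. Of 6 genes that process or degrade parts of the SREBP system, 4 fell and none rose, led by the SREBP protease Mbtps2 (-1.06 ± 0.09).

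Genes of uptake, efflux, transport and isoprenoid use were called in both directions, against the same 27.3% higher and 32.6% lower of all genes. Of 6 lipoprotein uptake genes, 3 rose and 2 fell: Sorl1, a sorting receptor, rose by 1.90, and the reelin and apolipoprotein E receptor Lrp8 fell by 1.02 on the log2 scale. Of 8 tested genes of oxysterol sensing and efflux, 5 rose and 2 fell, among them the pump Abcg1 (1.13 ± 0.10) and the receptor-degrading ligase Mylip (-0.77 ± 0.08). Of 11 intracellular transport genes, 4 rose and 4 fell, with Stard3 at 0.95 and Gramd1a at -0.57. Of 12 genes that use isoprenoids, 3 rose and 2 fell, with Icmt at 0.49 and Pdss2 at -0.45. The medians of these 4 lists were 0.35, 0.35, 0.05 and -0.01, beside -0.04 for all genes. The astrocyte markers (6 of 7 higher at P21 than at P7), the oligodendrocyte markers (7 of 7 higher) and the microglia markers (6 of 6 higher) rose over the same time, and their part in the genes that rose was not tested.

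At P7 the pull-down was set against whole tissue. Of the 31 genes, 5 were called higher in the pull-down and 20 lower, beside 18.6% and 51.1% of all genes, and the median was -0.24, beside -0.33 for all genes. Abca1, among these 20 and the 10 lower under all 3 scalings, passed the filter through the input alone, so its call was built in. With either input library left out it was not tested, which left 30 genes. With median-of-ratios scaling, which brings the median of all genes to 0.00, 15 were higher and 10 lower. The calls of Hmgcs1, Idi1, Msmo1 and Srebf2 were each lost when some single P7 pull-down library was left out. Without input replicate 1 there were 13 lower, and without input replicate 2 there were 3 higher; the input library left is then assumed to vary like the other groups. The calls that held under all 3 scalings were 4 higher (Mvk, Ggps1, Insig2 and Npc2) and 10 lower (Lss, Tm7sf2, Lbr, Sc5d, Dhcr7, Srebf1, Abca1, Cyp46a1, Npc1 and Soat1), and of these Mvk was lost without input replicate 2 (adjusted p = 0.0992 by limma).

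Ggps1 was the member most enriched in the pull-down: it read 38.2 and 34.5 TPM in the input and 85.1, 84.6 and 97.04 TPM in the P7 pull-downs (1.27 ± 0.07, adjusted p = 1.81e-07 by limma). Srebf1 was the most depleted, with 21.8 and 19.1 TPM in the input and 3.81, 3.40 and 2.71 TPM in the pull-downs (-2.32 ± 0.17, adjusted p = 9.45e-07 by limma), so that the ratio of Srebf2 to Srebf1 was 5.78 and 5.97 in the input and 27.2 to 39.3 in the pull-downs. Abca1 read 5.13 and 6.03 TPM in the input and 0.519 to 0.691 TPM in the pull-downs. Because it was tested through the input alone, its lower call was built into the filter, and no weight is put on it. Cyp46a1 read 91.9 and 95.6 TPM in the input, above all 3 pull-downs of that age (-1.02 ± 0.09, adjusted p = 3.1e-06 by limma).

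By step, of the 9 enzymes after lanosterol, 8 were lower in the pull-down and Msmo1 was higher, with a median of -0.55. The 5 mevalonate enzymes had 1 higher and 2 lower (Acat2 and Hmgcs1) and a median of -0.08. The call of Hmgcs1 (-0.24) was lost with no filter, no trend or a replicate block (adjusted p = 0.0941, 0.0670 and 0.0684 by limma). Acat2 gave -0.20 with all libraries and -0.13 without input replicate 1. Of all genes, 51.1% were called lower and 18.6% higher, with a median of -0.33. With median-of-ratios scaling Acat2, Hmgcs1, Pmvk and Mvd turned positive, and of the 8 lower late enzymes Ebp (-0.06), Cyp51 (-0.05), Nsdhl (-0.12) and Hsd17b7 (-0.23) were no longer called. The call of Msmo1 (0.19 ± 0.07) was lost in several fits, among them without input replicate 2 (adjusted p = 0.265 by limma). The difference between these steps was not tested. In the same comparison all 7 astrocyte markers were lower in the pull-down (median -3.43), as were all 7 oligodendrocyte markers (median -2.43), and their part in the lower values was not tested.

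**Figure D5:**
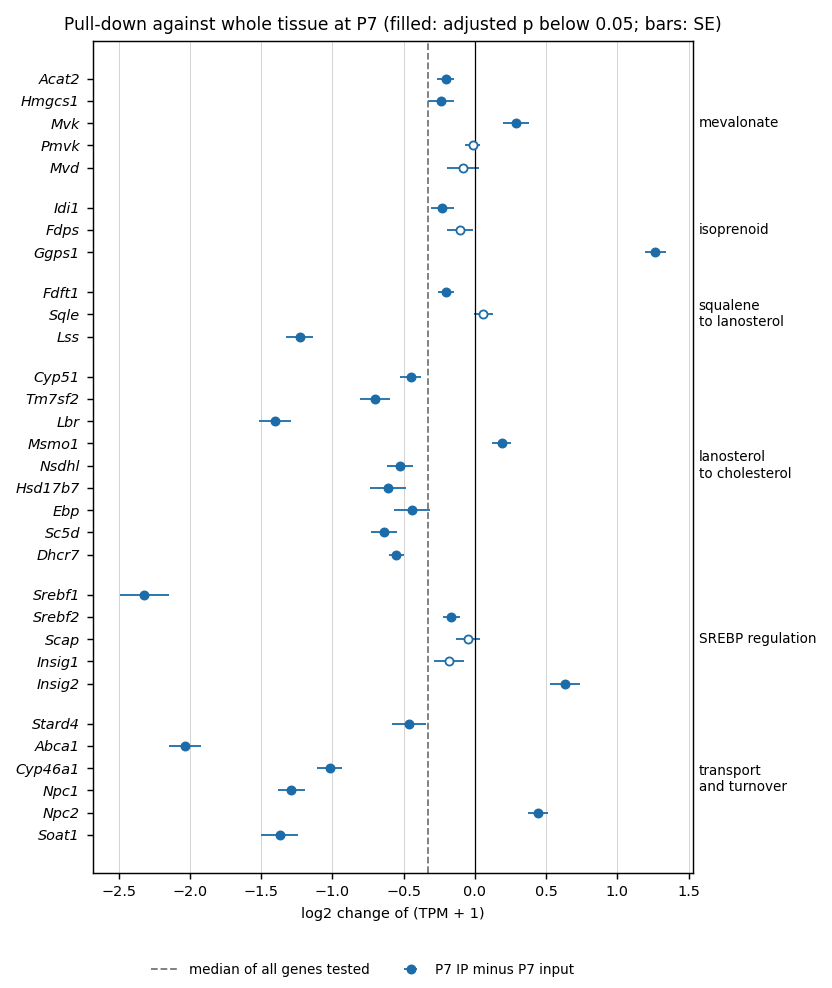
Log2 change of TPM + 1 from P7 input to P7 pull-down (horizontal axis) of the 31 genes, ordered by role; bars are SE, filled points passed adjusted p below 0.05 and the dashed line is the median of all genes tested, -0.33. Ggps1 lies farthest to the right, at 1.27, and Srebf1 and Abca1 farthest to the left, at -2.32 and -2.03.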

How the data were processed

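RNA from ribosome pull-downs (3 libraries per age) and from P7 whole tissue (2 libraries) was sequenced. The authors deposited 1 table of TPM values for 77179 Ensembl gene IDs and 11 libraries, and all its columns were used. The submitters' processing notes name mm39, Salmon 1.10.0, fastp 1.0.1 and DESeq2 1.46.0, without their roles. The annotation release and strand setting were not given in those notes, so reads of overlapping or antisense genes may not be told apart. TPM keeps no depth, and each value is a share that depends on all other genes.

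Groups came from the labels. The 19008 genes that reached 1 TPM in 2 or more libraries were fitted on log2(TPM + 1), a scale that understates changes of low genes. The fit used limma 3.58.1 in R 4.3.3 with 1 mean per group, all 11 libraries (leaving 7 residual degrees of freedom), a trend in the moderation of variances, and p-values adjusted by Benjamini-Hochberg. It gave 4 pairwise comparisons and the difference between the weekly steps. The age comparisons share libraries and are not independent. The code was tested on simulated data. Alternatives were pseudocounts of 0.1 and 5 TPM, no filter on low values, a filter at a mean of 5 TPM, quantile normalisation, median-of-ratios scaling, no trend, a replicate block, fits to only the groups compared, and leaving out each library.

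The members and lists were chosen with earlier results of these data known. All 31 members are reported, and from each other pathway list those with the largest called rise or fall in a comparison could be named. Symbols matched 50886 IDs. Marchf6 was matched through its RefSeq synonym, and Faxdc2 was not matched. Promoter sequences and their coordinates are RefSeq's (GRCm38.p6). The list of further synthesis genes is not reported here, except for Por.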

Additional observations from a re-analysis of the deposited data

Results flagged for a closer look

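For 12 of the 31 genes the change from P14 to P21 differed from that from P7 to P14 by the direct test. The test was limma at adjusted p below 0.05, on the second change minus the first (log2 scale). Of these genes, 11 were positive and 1 negative, beside 7.46% and 16.8% of all genes. The early enzymes that fell less after P14 were Acat2 (0.95), Mvd (1.24), Idi1 (0.57), Fdps (1.62), Fdft1 (0.62), Sqle (0.39) and Lss (0.58). Pmvk gave 0.43, and its change after P14 was 0.04 and not called, so that its fall lay before P14. Cyp51, the first enzyme after lanosterol, gave 0.49. Insig1 gave 0.61 and Npc2 0.84. The calls of Sqle, Lss and Insig1 were lost without P14 IP replicate 1, and those of Sqle and Insig1 also without P14 IP replicate 2. Cyp46a1 rose less after P14, at -0.77. The groups held 2 or 3 libraries, too few to look for a library that stands apart in a single gene.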

How the results depend on the processing

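Across the alternatives, 3075 values of single members were compared: 2948 kept their side of the threshold with no called value changing sign, 84 lost a call, 32 gained one, and 11 changed sign where a call was involved. Among the 2948, 32 values changed sign that passed the threshold neither before nor after. The 11 were in P7 IP against input. With median-of-ratios scaling they were Acat2 (0.20), Hmgcs1 (0.17), Pmvk (0.39), Mvd (0.32), Idi1 (0.18), Fdps (0.31), Fdft1 (0.20), Srebf2 (0.24), Scap (0.36) and Insig1 (0.23), and with quantile normalisation Ebp (0.04); these scalings move the median of all genes in that comparison from -0.33 to 0.00 and 0.03. That comparison then called 15 members higher and 10 lower with median-of-ratios scaling. From P14 to P21 the same scaling called 3 higher and 11 lower, and quantile normalisation called 2 higher. For the second step minus the first, 2 members were negative with only the groups compared; the cause was not tested.

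Leaving out each library in turn gave 3 to 5 members higher and 13 to 20 lower for P7 IP against input, 3 to 4 and 21 to 23 for P14 against P7, 1 and 12 to 19 for P21 against P14, 4 to 5 and 24 for P21 against P7, and 8 to 12 positive and 1 to 2 negative for the step test. The negative count was 2 without P7 IP replicate 3 or P14 IP replicate 1. The summed TPM of the 20 enzymes was 1461 (median-of-ratios) and 2017 (quantile) in the input, 1772 (median-of-ratios) in P7 IP, and 707.6 and 674.2 in P21 IP.

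Same-numbered libraries did not deviate together (correlations of their deviations from -0.105 to 0.177), so the numbers were not taken to pair the samples. With a replicate block, P7 IP against input had 4 members higher and 20 lower, P14 against P7 4 and 22, P21 against P14 1 and 18, P21 against P7 5 and 24, and the step test 11 and 1. Depth is unknown, and Abca1, Soat1, Lbr and Srebf1 are low enough for the pseudocount to shrink their changes.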
